A study of Homo sapiens with 6 samples.

Results

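The genes described here are the collagens and the enzymes that modify collagen chains after they are made. The 44 protein-coding genes whose GENCODE symbols have the form of a collagen chain (COL, a number, A, a number) were taken with 11 enzyme genes, namely P4HA1 to P4HA3, PLOD1 to PLOD3, LOX and LOXL1 to LOXL4. These 55 genes were all found among the 63140 genes of the deposited tables.

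A collagen is built from 3 chains that wind around each other into a triple helix inside the endoplasmic reticulum. Prolyl 4-hydroxylases, whose catalytic subunits are encoded by P4HA genes, hydroxylate prolines of the new chain so that the helix is stable at body temperature. Lysyl hydroxylases, encoded by PLOD genes, hydroxylate lysines that later carry sugars or crosslinks. Lysyl oxidases, encoded by LOX and the LOXL genes, act outside the cell, where they oxidize lysines of secreted collagen and elastin to start those crosslinks. In breast tumors, collagen that is dense and crosslinked is a well known feature of the stroma, and mesenchymal tumor cells also make collagen themselves.

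RNA was sequenced from BT-549 cells, a human triple negative breast cancer line (breast tumor cells without estrogen and progesterone receptors or amplified HER2), to ask how medium conditioned by adipocytes changes gene expression. Wild type cells carrying no transgene were cultured for 24 h in adipocyte conditioned medium (ACM, 3 libraries) or in unconditioned medium (UCM, 3 libraries). Replicates were separate wells of a plate, so p-values measure the spread between these cultures. ACM had been kept on OP9 mouse cells that were differentiated to adipocytes, in a low-serum alpha-MEM medium with albumin, sodium oleate and insulin, while the cells' usual medium was RPMI-1640 with serum and insulin. The labels give 50% ACM and the study's supplement gives it undiluted, and the formula of UCM was not given in the sources used here. Base medium, serum, oleate, insulin and the adipocyte secretions therefore cannot be told apart.

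The libraries held between 17135288 and 21053257 expected counts, and 14451 of the 63140 genes had enough counts to be tested. The cells are labelled epithelial, but the summed TPM (a level per transcript length that sums to the same total in every library) of 6 epithelial markers (EPCAM, CDH1, KRT8, KRT18, KRT19 and GRHL2) was at most 2.24 in any library, and that of 4 mesenchymal markers (VIM, CDH2, ZEB1 and SNAI2) was at least 2672. ESR1 and PGR, which encode the estrogen and progesterone receptors, were at 0 in all 6 libraries. ERBB2, which encodes HER2, was expressed, with TPM of 26.4 to 28.5 in ACM and 25.4 to 32.4 in UCM. No adipocyte marker passed the filter, and ADIPOQ, CIDEC and LEP were at 0 throughout.

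Collagen genes and their enzymes were more often higher in ACM than lower. Of the 55 genes, 37 had enough counts to be tested (26 collagens and all 11 enzymes), and the log2 fold change (log2 FC, ACM against UCM) was above 0 for 30 of them and below 0 for 7. Their median log2 FC was 0.27, beside -0.01 over all tested genes. In edgeR's quasi-likelihood test with Benjamini-Hochberg adjustment over all tested genes, 7 members rose (18.9% of those tested), beside 3.35% of all tested genes. These were P4HA3, PLOD2, COL5A2, COL15A1, COL6A2, COL6A1 and P4HA2. No member fell in the same test, beside 2.21% of all genes. At an unadjusted p of 0.05 in edgeR, 16 members were higher, beside 11.9% of all tested genes, and none was lower, beside 11.5%. DESeq2 called 11 members higher, beside 5.27% of all tested genes, and none lower, beside 3.07%. The count of 7 became 3 without ACM replicate 2, beside 1.39% of all tested genes called higher in that comparison. It became 3 without UCM replicate 2 (beside 0.865%) and 4 without UCM replicate 3 (beside 0.955%). A member at a low count has less chance of a call: among the 25 members with a mean of at least 10 CPM (counts scaled to library size), the same 7 were called (28%), beside 4.11% of all genes at that level. Because whole cultures were sequenced, more transcript per cell and more cells of a high-expressing kind cannot be told apart.

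**Figure D1:**
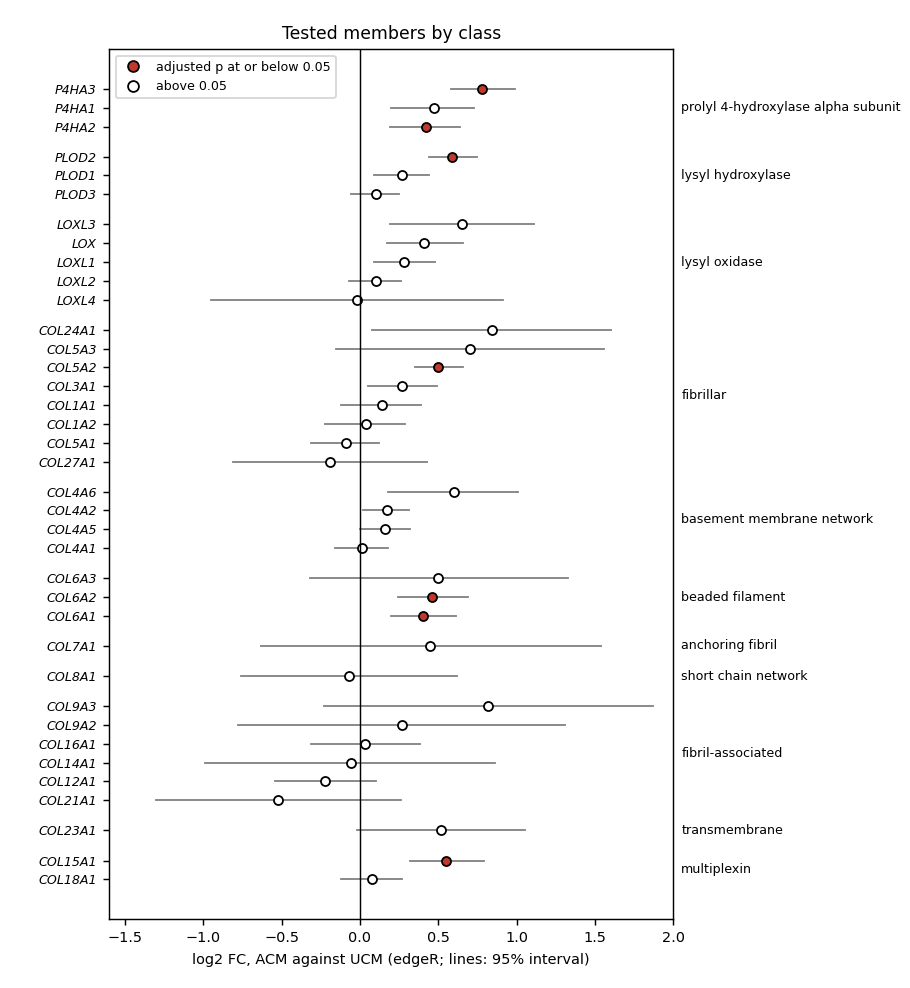
The log2 FC of ACM against UCM (horizontal axis) is plotted for the 37 tested members, grouped by class, with 95% intervals from edgeR over 3 libraries per group. Filled points are the 7 members at an adjusted p of 0.05 or below, all to the right of 0. Wide intervals belong to genes with few counts, such as COL9A3, and to COL7A1 (-0.63 to 1.54), whose counts varied between replicates.

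All 3 values of CPM in ACM lay above all 3 in UCM for 20 of the 37 tested members, beside 13.9% of all tested genes. The reverse was true of 1 member, COL21A1, beside 15% of all tested genes. Summed over all 55 members, TPM was 5925, 5824 and 5473 in ACM and 4987, 4855 and 5007 in UCM, so the groups did not overlap. The 11 enzymes alone summed to 2457, 2627 and 2471 TPM in ACM and to 2111, 2142 and 2243 TPM in UCM. The 44 collagens alone summed to 3468, 3197 and 3001 TPM in ACM and to 2876, 2713 and 2765 TPM in UCM. Both sums were higher in every ACM library, whereas the sum of the fibrillar collagens overlapped between the groups. The collagen sum holds COL6A1, at 796, 805 and 670 TPM in ACM against 608, 557 and 526 in UCM. It also holds COL6A2, at 405, 454 and 341 TPM in ACM against 330, 270 and 277 in UCM. The gap in the collagen sum is therefore not a measure of the collagens as a class.

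All 3 prolyl 4-hydroxylase subunits were higher in every ACM library, and 2 of the 3 passed the test. P4HA3 (ENSG00000149380.12, chromosome 11, 74235801 to 74311640, minus strand, GRCh38) had the highest log2 FC of the 7 called members. Its TPM was 49, 52.1 and 44.9 in ACM against 29.1, 29.8 and 30.8 in UCM. The groups were far apart, with the lowest ACM library well above the highest UCM library. Its log2 FC was 0.78 (SE 0.09, edgeR adjusted p = 0.00232), which is 1.72-fold with a 95% interval of 1.49 to 1.98. The gene overlaps PPME1 on the other strand, whose log2 FC was -0.07.

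P4HA2 is the most abundant of the 3 subunits in these cells. Its TPM was 137, 171 and 128 in ACM and 114, 105 and 103 in UCM. ACM replicate 2 was the highest and the groups did not overlap. The log2 FC of P4HA2 (ENSG00000072682.20, chromosome 5, 132190147 to 132295315, minus strand) was 0.42 (SE 0.10, edgeR adjusted p = 0.0428). This call held in only 1 of the 6 comparisons that left out a library, that without ACM replicate 3. The adjusted p from edgeR was 0.0605 without ACM replicate 1, 0.0857 without ACM replicate 2, 0.0593 without UCM replicate 1, 0.163 without UCM replicate 2 and 0.147 without UCM replicate 3. P4HA2 overlaps PDLIM4 on the other strand, a gene with 521 counts over the 6 libraries and a log2 FC of 0.98 (edgeR adjusted p = 0.037). Whether the counting used strand is not given in the sources used here, and the part of PDLIM4 reads in the result was not tested.

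P4HA1, the most widely expressed of these subunits in human tissues, had TPM of 52.8, 67.8 and 50.9 in ACM against 41.3, 40.8 and 44.5 in UCM. The groups did not overlap, with ACM replicate 2 again the highest. Its log2 FC of 0.47 (SE 0.12) missed the threshold in edgeR (adjusted p = 0.0553) and passed it without ACM replicate 3 (adjusted p = 0.0413). Of the summed TPM of the 3 subunits, P4HA3 made up 20.5%, 17.9% and 20% in ACM and 15.8%, 17% and 17.2% in UCM, again without overlap. The share of P4HA2 (57.2% to 61.8% over the 6 libraries) and that of P4HA1 (22.1% to 24.9%) overlapped between the groups.

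Among the lysyl hydroxylases, PLOD2 rose, while PLOD1 and PLOD3 did not pass the test. PLOD2 hydroxylates lysines of the telopeptides, the chain ends from which the more stable crosslinks form. Its TPM was 141, 156 and 146 in ACM and 106, 96.8 and 98.8 in UCM. All ACM libraries were above all UCM libraries by more than the spread within either group. For PLOD2 (ENSG00000152952.14, chromosome 3, 146035139 to 146163725, minus strand) the log2 FC was 0.59 (SE 0.07, edgeR adjusted p = 0.00232), or 1.51-fold with a 95% interval of 1.35 to 1.68.

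PLOD1, which acts on lysines within the helix, had TPM of 320, 340 and 296 in ACM against 259, 265 and 279 in UCM. The groups did not overlap, and the log2 FC was 0.27 (SE 0.08, edgeR adjusted p = 0.0796). PLOD3, which also adds sugars to hydroxylysine, had TPM of 290, 274 and 253 in ACM and 275, 263 and 266 in UCM. These values overlapped, and the log2 FC was 0.10 (SE 0.07, 95% interval -0.06 to 0.25, edgeR adjusted p = 0.453). PLOD2 accordingly made up a greater share of the summed TPM of the 3 genes in every ACM library, 18.8%, 20.2% and 21% against 16.6%, 15.5% and 15.3% in UCM. The share of PLOD3 lay lower in ACM, at 38.6%, 35.6% and 36.4% against 43%, 42.2% and 41.3%, and that of PLOD1 overlapped.

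The 250 bases before the RefSeq start site are shown for the called members that have an entry in the promoter table, PLOD2 and P4HA2 among the enzymes and COL15A1 and COL6A2 among the collagens. PLOD2, P4HA1 and P4HA2 are textbook targets of hypoxia inducible factors, whose binding motif has the core ACGTG or GCGTG, so these letters (on either strand, where they read CACGT or CACGC) are in capitals. The sequences are those of RefSeq on GRCh38.p14, read 5′ to 3′ on the strand of the gene. The windows span chr3:146161185-146161434 (PLOD2, minus strand), chr5:132227092-132227341 (P4HA2, minus strand), chr9:98943657-98943906 (COL15A1, plus strand) and chr21:46097862-46098111 (COL6A2, plus strand). Those of PLOD2, P4HA2 and COL15A1 lie inside the longer gene of GENCODE 44, which has further start sites upstream.
PLOD2: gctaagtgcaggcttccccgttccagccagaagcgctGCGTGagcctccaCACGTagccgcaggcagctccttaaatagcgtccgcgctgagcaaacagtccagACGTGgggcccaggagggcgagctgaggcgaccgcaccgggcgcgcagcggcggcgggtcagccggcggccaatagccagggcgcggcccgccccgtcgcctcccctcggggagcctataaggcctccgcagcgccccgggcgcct
P4HA2: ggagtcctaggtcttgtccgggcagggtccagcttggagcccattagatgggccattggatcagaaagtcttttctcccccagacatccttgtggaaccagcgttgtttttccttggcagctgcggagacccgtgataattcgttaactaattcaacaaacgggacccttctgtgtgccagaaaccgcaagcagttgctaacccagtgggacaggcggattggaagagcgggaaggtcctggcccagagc
COL15A1: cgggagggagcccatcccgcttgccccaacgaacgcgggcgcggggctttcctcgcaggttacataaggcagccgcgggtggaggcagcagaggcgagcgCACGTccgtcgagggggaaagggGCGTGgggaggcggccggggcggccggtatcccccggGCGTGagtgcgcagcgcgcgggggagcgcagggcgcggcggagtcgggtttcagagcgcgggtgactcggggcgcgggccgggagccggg
COL6A2: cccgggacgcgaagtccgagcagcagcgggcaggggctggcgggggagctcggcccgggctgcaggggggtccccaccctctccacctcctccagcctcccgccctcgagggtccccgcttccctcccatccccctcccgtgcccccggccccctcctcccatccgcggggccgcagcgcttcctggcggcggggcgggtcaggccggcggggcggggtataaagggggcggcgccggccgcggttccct
The window of PLOD2 held the letters in 3 places and that of COL15A1 in 3, and those of P4HA2 and COL6A2 held none. Such letters are common: they were found in 43.1% of the same windows of 27305 genes and in 10 of the 27 tested members that have a window (37%). The GC-box letters GGGCGG were found before 19 of those 27 members (70.4%) and before 42.3% of all genes, and the CCAAT letters before 8 (29.6%) and 33%. The 27 members had enough counts to be tested, whereas the 27305 genes were not chosen by expression. The shares are therefore of unlike sets, and a trait of collagen genes cannot be read from them. A match is a description of the sequence and says nothing about binding.

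Lysyl oxidases were among the most abundant members, and none passed the test. LOXL2 was first of all 55 members by mean TPM (809) and LOX (483) came after COL6A1, COL1A1 and COL1A2. TPM of LOX, the founding member of the family, was 485, 552 and 599 in ACM and 354, 439 and 468 in UCM. Every ACM library was above every UCM library, although the lowest ACM value was close to the highest UCM value. Its log2 FC was 0.41 (SE 0.11, edgeR adjusted p = 0.0604), and the adjusted p was 0.0482 without ACM replicate 1. LOXL1, which is best known for crosslinking elastin, had TPM of 153, 150 and 168 in ACM and 118, 136 and 135 in UCM, again without overlap. Its log2 FC was 0.28 (SE 0.09, edgeR adjusted p = 0.0916).

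LOXL2, which acts on basement membrane collagen, had TPM of 823, 860 and 782 in ACM against 811, 762 and 814 in UCM. The TPM overlapped although the CPM did not, and the log2 FC was 0.10 (SE 0.07, 95% interval -0.07 to 0.26, edgeR adjusted p = 0.472). LOXL3 was far lower, and its ACM libraries held 110, 90 and 98 counts against 78, 68 and 44 in the UCM libraries. Its counts did not overlap, and its log2 FC of 0.65 (SE 0.21, edgeR adjusted p = 0.0947) was large but imprecise. LOXL4 had between 9 and 15 counts per library and a log2 FC of -0.02 (SE 0.42, edgeR adjusted p = 0.984), so a change in either direction was not detectable at this depth. LOX stood at 0.59, 0.641 and 0.767 times the TPM of LOXL2 in ACM and at 0.437, 0.576 and 0.575 times in UCM, which left the groups just apart. The expected counts of LOXL1, LOXL2, LOXL3 and COL18A1 include fractions of reads. These genes overlap other annotated genes. So do further members, such as LOX (SRFBP1, 2497 counts over the 6 libraries) and PLOD3 (ZNHIT1, 9049 counts).

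**Figure D2:**
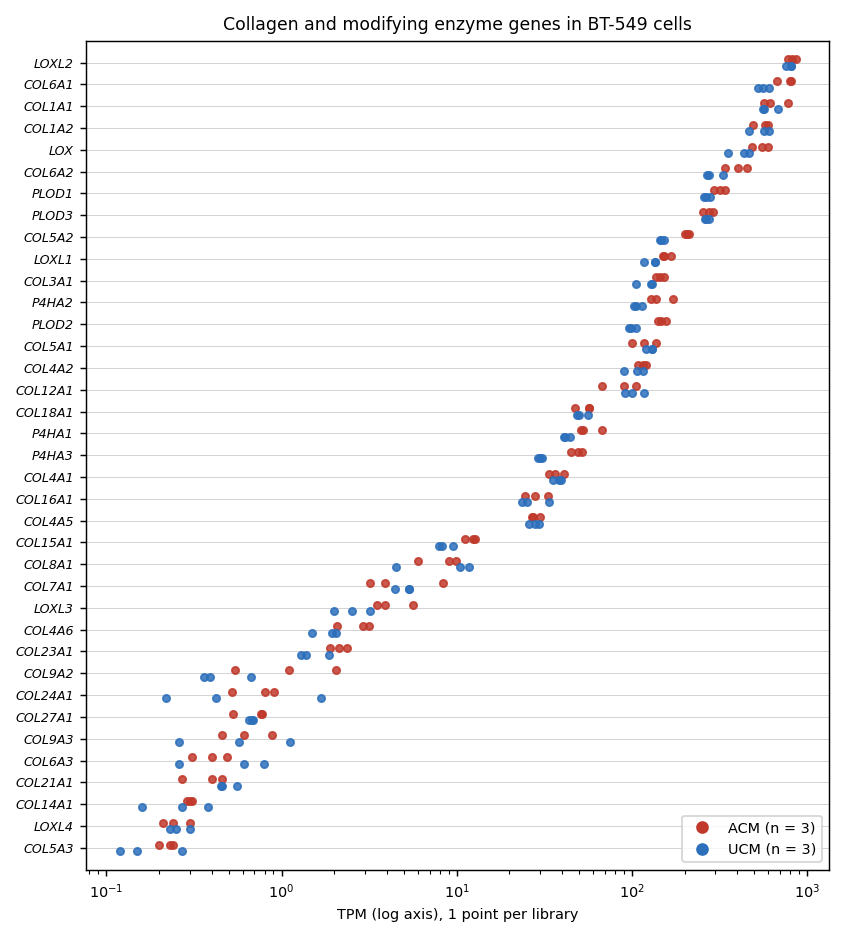
TPM of the 37 tested members is plotted on a log axis, with 1 point per library (red, ACM; blue, UCM) and genes ordered by mean TPM. LOXL2, COL6A1 and COL1A1 lie near the top of a range that spans more than 3 orders of magnitude, and PLOD2, COL5A2 and P4HA3 show separate red and blue points.

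Among collagen genes the order of levels began with COL6A1 (mean 660 TPM), COL1A1 (628), COL1A2 (552), COL6A2 (346), COL5A2 (177) and COL3A1 (133). In UCM the range of COL6A1 overlapped that of COL1A1, and the range of COL1A1 overlapped that of COL1A2, so that their order was not resolved. The range of COL5A2, 144 to 153 TPM, lay clear of its neighbors in the order, PLOD3 and LOXL1.

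Of the 8 tested fibrillar collagens, COL5A2 alone passed the test. Type V collagen is a minor component that starts and limits the growth of collagen I fibrils. TPM of COL5A2 was 213, 207 and 201 in ACM and 146, 144 and 153 in UCM. Values within each group were close, and the gap between the groups was several times the spread within them. The log2 FC of COL5A2 (ENSG00000204262.14, chromosome 2, 189031898 to 189225312, minus strand) was 0.50 (SE 0.07, edgeR adjusted p = 0.00401), or 1.42-fold with a 95% interval of 1.28 to 1.58.

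COL5A1, whose chain joins that of COL5A2 in the common form of type V collagen, had TPM of 137, 99.8 and 118 in ACM and 131, 121 and 131 in UCM. These values overlapped, and the log2 FC was -0.09 (SE 0.10, 95% interval -0.31 to 0.12, edgeR adjusted p = 0.612). The ratio of COL5A2 to COL5A1 TPM within a library was 1.55, 2.07 and 1.7 in ACM and 1.11, 1.19 and 1.17 in UCM, without overlap. COL5A3 had only 10 to 20 counts per library, with a log2 FC of 0.70 (SE 0.39, edgeR adjusted p = 0.308).

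**Figure D3:**
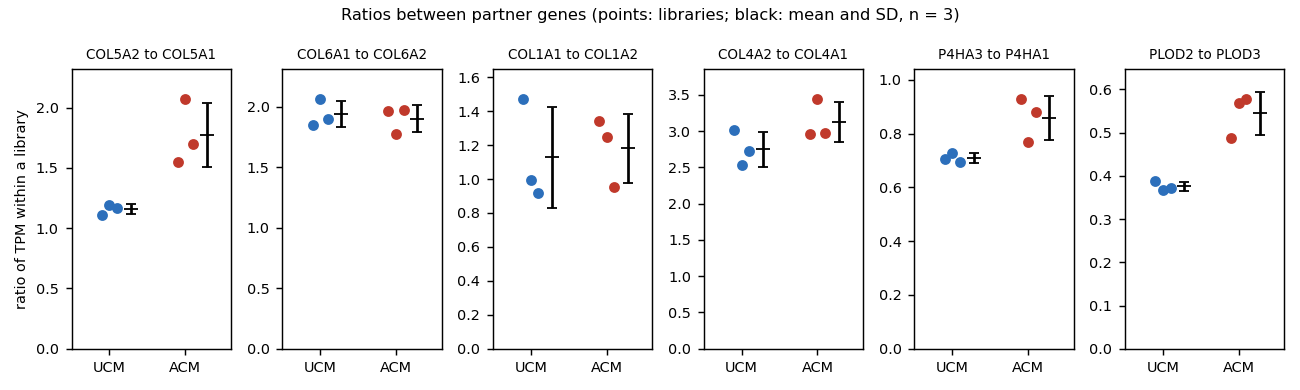
Ratios of TPM within a library are plotted for 6 pairs of genes, with 1 point per library and the mean ± SD (n = 3) in black beside each group. The groups are apart for COL5A2 to COL5A1, P4HA3 to P4HA1 and PLOD2 to PLOD3, and overlap for COL6A1 to COL6A2, COL1A1 to COL1A2 and COL4A2 to COL4A1.

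The chains of type I collagen, the main fibrillar collagen, overlapped between the groups. COL1A1 had TPM of 773, 616 and 570 in ACM and 681, 568 and 558 in UCM, and replicate 1 was the highest in both groups. Its log2 FC was 0.14 (SE 0.11, 95% interval -0.12 to 0.39, edgeR adjusted p = 0.526). COL1A2 had TPM of 578, 493 and 599 in ACM and 463, 571 and 607 in UCM, with a log2 FC of 0.04 (SE 0.11, 95% interval -0.22 to 0.29, edgeR adjusted p = 0.882). The interval of COL1A2 leaves out a change as large as that of COL5A2. COL3A1, the chain of type III collagen, is the tail-to-tail neighbor of COL5A2 on chromosome 2, with 19151 bases between the genes. Its TPM was 145, 152 and 137 in ACM and 105, 129 and 130 in UCM, which did not overlap, and its log2 FC was 0.27 (SE 0.10, edgeR adjusted p = 0.131).

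COL24A1, a fibrillar collagen of developing bone, had the largest log2 FC of all tested members, 0.84 (SE 0.34, edgeR adjusted p = 0.175), at a low level. The ACM libraries held 30, 37 and 35 counts against 18, 24 and 15 in the UCM libraries, which did not overlap. Its TPM of 0.91, 0.52 and 0.81 in ACM and 1.68, 0.42 and 0.22 in UCM did overlap, since TPM divides by the effective length, which RSEM set between 737 and 5745 bases for this gene depending on the library. COL27A1 had 34 to 76 counts per library and a log2 FC of -0.19 (SE 0.28, edgeR adjusted p = 0.747).

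Both abundant chains of type VI collagen, which forms beaded filaments around cells, rose in ACM. TPM of COL6A1 was 796, 805 and 670 in ACM and 608, 557 and 526 in UCM. TPM of COL6A2 was 405, 454 and 341 in ACM and 330, 270 and 277 in UCM. For both genes ACM replicate 3 was the lowest of its group and UCM replicate 1 the highest of its group, and the groups did not overlap. The log2 FC was 0.40 (SE 0.09, edgeR adjusted p = 0.0349) for COL6A1 (ENSG00000142156.16, chromosome 21, 45981770 to 46005050, plus strand). It was 0.46 (SE 0.10, edgeR adjusted p = 0.0304) for COL6A2 (ENSG00000142173.17, chromosome 21, 46098112 to 46132848, plus strand). These genes follow each other on the same strand with 93061 bases between them.

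The ratio of COL6A1 to COL6A2 TPM was 1.96, 1.77 and 1.97 in ACM and 1.85, 2.06 and 1.9 in UCM, and so overlapped. COL6A3, the third chain of the common heterotrimer, had 17 to 52 counts per library against at least 10122 for COL6A2, with a log2 FC of 0.50 (SE 0.37, edgeR adjusted p = 0.461). Both calls depended on 4 libraries. For COL6A1 the edgeR adjusted p was 0.0747 without ACM replicate 1, 0.12 without ACM replicate 2, 0.153 without UCM replicate 2 and 0.159 without UCM replicate 3. For COL6A2 it was 0.0663, 0.0871, 0.134 and 0.126 in the same order, with log2 FC between 0.36 and 0.56 over all 6 comparisons that left out a library.

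The 4 tested chains of type IV collagen, the network of basement membranes, all had a log2 FC above 0 and none passed the test. TPM of COL4A1 was 41, 33.7 and 36.3 in ACM and 38.2, 35.6 and 39.3 in UCM, and its log2 FC was 0.01 (SE 0.08, 95% interval -0.16 to 0.18, edgeR adjusted p = 0.945). TPM of COL4A2 was 121, 116 and 108 in ACM and 115, 90.1 and 107 in UCM, and its log2 FC was 0.17 (SE 0.07, 95% interval 0.02 to 0.31, edgeR adjusted p = 0.161). These values overlapped for both genes, although the CPM of COL4A2 did not.

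COL4A1 and COL4A2 are read from a shared promoter in opposite directions, a classic case of a bidirectional promoter. The 126 bases between their RefSeq start sites (GRCh38.p14, chr13:110307158-110307283, plus strand, RefSeq) are shown to let the shared stretch be seen, with the letters GGGCGG and CCAAT (either strand) in capitals.
COL4A1-COL4A2: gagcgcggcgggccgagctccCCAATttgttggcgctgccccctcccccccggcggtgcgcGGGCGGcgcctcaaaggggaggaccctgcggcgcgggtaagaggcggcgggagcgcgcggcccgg
Each of these motifs was found in 1 place in this stretch. The genes were unequal in level, since COL4A2 had 2.96, 3.44 and 2.97 times the TPM of COL4A1 in ACM and 3.01, 2.53 and 2.72 times in UCM, with overlap between the groups.

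COL4A6 and COL4A5 share the X chromosome in the same head-to-head arrangement. COL4A6 had 183, 220 and 158 counts in the ACM libraries against 143, 134 and 96 in the UCM libraries, without overlap. Its log2 FC of 0.60 (SE 0.19, edgeR adjusted p = 0.0905) was past the fold that the study used. TPM of COL4A5 was 26.9, 30 and 27.2 in ACM and 25.7, 29.3 and 27.9 in UCM, with a log2 FC of 0.16 (SE 0.07, edgeR adjusted p = 0.223). COL4A3, with at most 3 counts in a library, and COL4A4, with at most 9, were not tested.

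COL15A1, a multiplexin that links basement membranes to the fibrils around them, rose in ACM. In counts it reached 694, 725 and 686 in ACM against 493, 468 and 466 in UCM, and its TPM was 11.2, 12.8 and 12.4 against 7.95, 8.29 and 9.47. The groups were well apart on both scales. For COL15A1 (ENSG00000204291.12, chromosome 9, 98943179 to 99070792, plus strand) the log2 FC was 0.55 (SE 0.10, edgeR adjusted p = 0.0158), or 1.47-fold with a 95% interval of 1.25 to 1.72. The adjusted p was 0.0626 without ACM replicate 2 and 0.0728 without UCM replicate 2. COL18A1, the other multiplexin and the source of endostatin, had TPM of 47.6 to 56.8 in ACM and 48.7 to 55.9 in UCM, with a log2 FC of 0.08 (SE 0.09, edgeR adjusted p = 0.668).

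**Figure D4:**
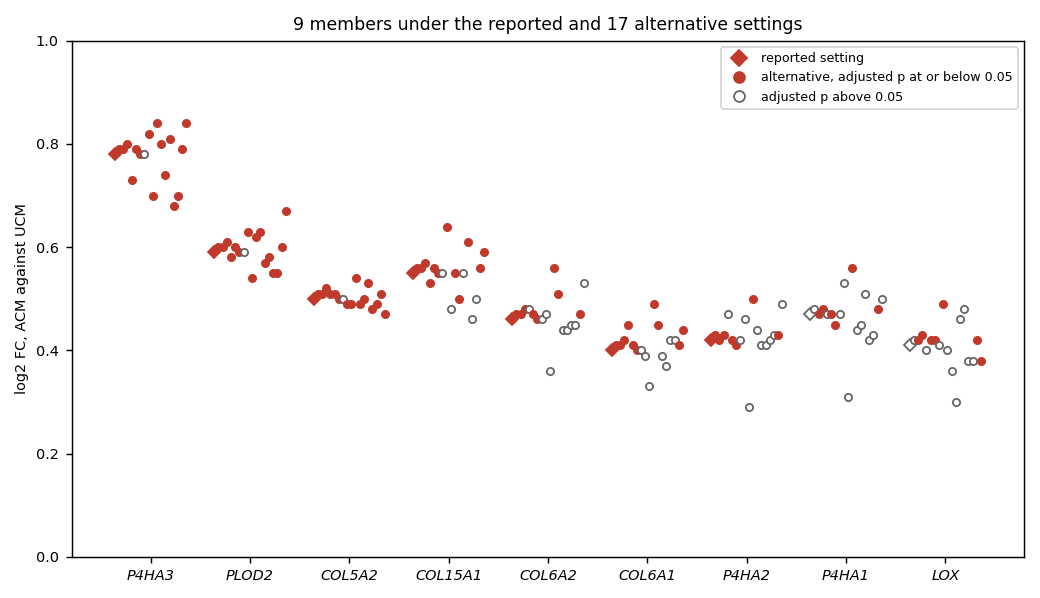
The log2 FC of ACM against UCM (vertical axis) is plotted for the 7 called members and for P4HA1 and LOX, with a diamond for the reported edgeR result and 1 circle for each of 17 other settings. Filled symbols have an adjusted p of 0.05 or below: P4HA3, PLOD2 and COL5A2 are filled in 16 of 17 and P4HA2 in 7, while every symbol lies above 0.

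The remaining tested collagens did not pass the test. COL12A1, which lies along the surface of collagen I fibrils, was the most abundant of them, with 95 TPM on average. Its TPM was 105, 67.3 and 89.8 in ACM and 117, 90.8 and 99.7 in UCM, and its log2 FC was -0.22 (SE 0.14, 95% interval -0.54 to 0.10, edgeR adjusted p = 0.388). COL21A1, of the same fibril-associated class, had 13 to 20 counts in ACM and 23 to 25 in UCM, with a log2 FC of -0.52 (SE 0.35, edgeR adjusted p = 0.42). The other 4 fibril-associated collagens tested (COL9A2, COL9A3, COL14A1 and COL16A1) had log2 FC from -0.06 to 0.82 with adjusted p in edgeR from 0.336 to 0.949.

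COL7A1, which anchors basement membranes of skin, varied more between replicates than between groups. The ACM libraries held 592, 232 and 205 counts and the UCM libraries 396, 178 and 169, so that replicate 1 of both groups stood above the other libraries. Its log2 FC was 0.45 (SE 0.45, edgeR adjusted p = 0.609), and it was -0.08 without ACM replicate 1. COL8A1, a short chain collagen, had 296, 326 and 367 counts in the ACM libraries against 227, 421 and 375 in the UCM libraries, with replicate 1 lowest in both groups, and a log2 FC of -0.07 (SE 0.29, edgeR adjusted p = 0.911). The transmembrane COL23A1 had 43 to 83 counts per library and a log2 FC of 0.52 (SE 0.24, edgeR adjusted p = 0.229).

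At the study's fold threshold (a log2 FC of 0.58 or more) and its p of 0.05, read here as unadjusted (whether it was adjusted is not given in the sources used here), 5 members were higher in ACM, P4HA3, PLOD2, COL4A6, LOXL3 and COL24A1, beside 4.12% of all tested genes. None was lower, beside 1.71%. COL5A2, COL15A1, COL6A1, COL6A2 and P4HA2 lay under that fold. The count of 5 became 2 without ACM replicate 2 and 3 without UCM replicate 3.

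The 18 members that were not tested were all collagens. COL11A1, COL22A1, COL25A1, COL6A5 and COL9A1 had no count in any library, and 12 of the 18 never had more than 3 counts. The highest count was 21, for COL11A2 in UCM replicate 1. COL28A1 had 3, 2 and 3 counts in the ACM libraries against 17, 7 and 7 in the UCM libraries, and COL8A2 had 3 to 11 counts. Type II collagen of cartilage (COL2A1) had at most 2 counts and COL10A1 of hypertrophic cartilage also at most 2.

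Genes that work with collagens were taken as 6 lists of 74 genes in all, of which 60 were tested. Of these, 8 rose (13.3%, beside 3.35% of all tested genes) and none fell (beside 2.21%) in edgeR. At an unadjusted p of 0.05 in edgeR, 25 were higher, beside 11.9% of all tested genes. At the same p, 2 (PYCR3 and SHMT1) were lower, beside 11.5%. The median log2 FC of the 60 tested genes was 0.18, beside -0.01 over all genes. The count of 8 became 5 without ACM replicate 2, 4 without UCM replicate 2 and 4 without UCM replicate 3. Of all tested genes, 1.39%, 0.865% and 0.955% were called higher in these comparisons, in the same order.

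Of 15 genes for folding, chaperones and glycosylation, all tested, 12 had a log2 FC above 0. In edgeR 1 rose (6.67%, beside 3.35% of all tested genes), FKBP10, a prolyl isomerase needed for telopeptide lysine hydroxylation. TPM of FKBP10 was 277, 268 and 237 in ACM and 228, 204 and 213 in UCM, with a log2 FC of 0.38 (SE 0.07, edgeR adjusted p = 0.0158). Without UCM replicate 2 or UCM replicate 3 the FKBP10 call was lost, with an adjusted p of at most 0.0853 in edgeR. At an unadjusted p of 0.05, 8 of the 15 were higher, beside 11.9% of all tested genes, and none was lower. The highest log2 FC of the list was that of COLGALT2, a collagen galactosyltransferase, at 0.55 (SE 0.24, edgeR adjusted p = 0.198), with groups that overlapped. SERPINH1, the collagen chaperone HSP47, had TPM of 886, 883 and 920 in ACM and 683, 857 and 864 in UCM (log2 FC 0.18, SE 0.09, edgeR adjusted p = 0.302). None of the 12 export genes, which build the large carriers that leave the endoplasmic reticulum, passed the edgeR test, and 4 were higher at an unadjusted p of 0.05. None of the 7 tested processing genes, which cut the ends off procollagen or enhance that cutting, passed the edgeR test either. Of them, 1 (PCOLCE, an enhancer) was higher at an unadjusted p of 0.05.

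Of the 10 tested organizers of the fibril, 3 rose (30%, beside 3.35% of all tested genes). TNC, the matrix glycoprotein tenascin C, had TPM of 79.2, 100 and 68.7 in ACM and 38, 33.1 and 35.4 in UCM, with a log2 FC of 1.25 (SE 0.14, edgeR adjusted p = 0.00497). FBLN1 and FBLN2 (fibulins) had log2 FC of 0.49 (SE 0.10, edgeR adjusted p = 0.0272) and 0.36 (SE 0.08, edgeR adjusted p = 0.0353). Without ACM replicate 2, UCM replicate 2 or UCM replicate 3, neither fibulin was called (adjusted p up to 0.114 for FBLN1 and 0.146 for FBLN2 in edgeR), nor was FBLN2 without ACM replicate 3. THBS1 and POSTN were lower in every ACM library on the CPM scale, with log2 FC of -0.30 and -0.10 and adjusted p of 0.396 and 0.4 in edgeR.

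Of 6 tested collagen receptors, 2 rose (33.3%, beside 3.35% of all tested genes). DDR2, a receptor tyrosine kinase for fibrillar collagen, had TPM of 38.8, 41.4 and 41.5 in ACM and 26.2, 22.1 and 24.5 in UCM. Its log2 FC was 0.81 (SE 0.08, edgeR adjusted p = 0.001). MRC2, the endocytic receptor through which cells take up collagen for degradation, had a log2 FC of 0.45 (SE 0.08, edgeR adjusted p = 0.0131), and its adjusted p rose to as much as 0.0746 without ACM replicate 2, UCM replicate 2 or UCM replicate 3. ITGB1, the shared beta chain of the collagen-binding integrins, had a log2 FC of 0.19 (SE 0.08, edgeR adjusted p = 0.178). Of the 4 alpha chains that pair with it, ITGA10 was counted 778, 862 and 452 times in the ACM libraries against 581, 268 and 219 times in the UCM libraries, and the groups overlapped. Its log2 FC of 1.00 (SE 0.38, edgeR adjusted p = 0.186) was the highest of the 6 tested receptors and past the study's fold, with an unadjusted p of 0.0383. ITGA11 had a log2 FC of -0.30 (SE 0.45, edgeR adjusted p = 0.741), and ITGA1 and ITGA2 had at most 7 counts in a library.

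Among 10 tested genes for the supply of proline, glycine and ascorbate, 2 rose (20%, beside 3.35% of all tested genes). Both belong to the serine pathway from which glycine is made. PHGDH, its first enzyme, had TPM of 94.1, 98.7 and 115 in ACM and 54.8, 50.9 and 60 in UCM, with a log2 FC of 0.94 (SE 0.10, edgeR adjusted p = 0.00219). PSAT1, the next enzyme, had a log2 FC of 0.59 (SE 0.08, edgeR adjusted p = 0.00494). PYCR1, which makes proline in mitochondria, had a log2 FC of 0.27 and PYCR3 of -0.27, with adjusted p of 0.081 and 0.0846 in edgeR. DDR2, TNC, PHGDH and PSAT1 were called in all 6 comparisons that left out a library.

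**Figure D5:**
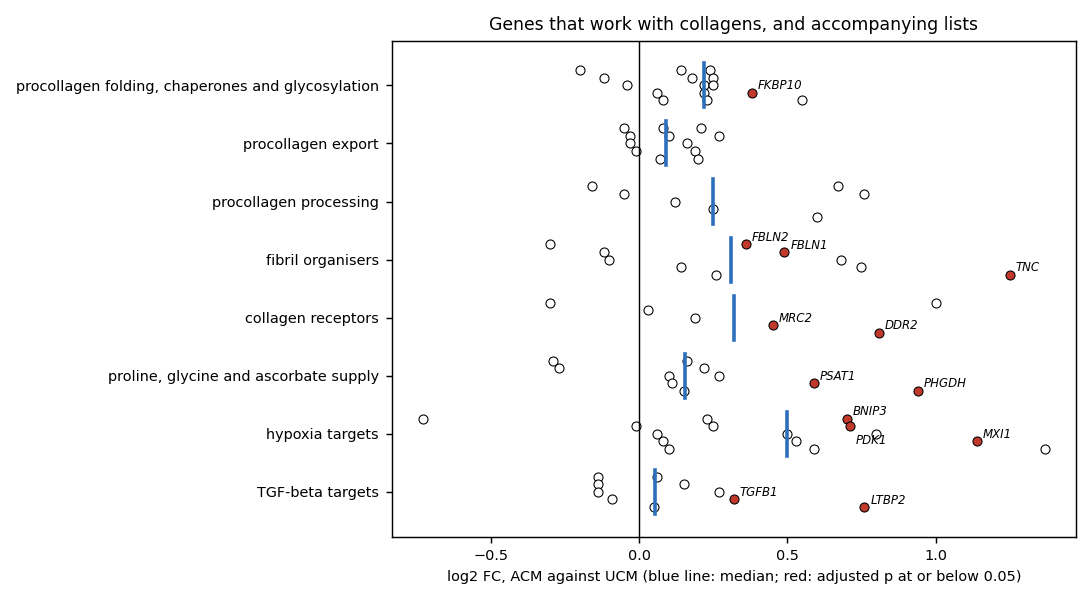
The log2 FC of ACM against UCM (horizontal axis) is plotted for each tested gene of 6 lists that work with collagens and of 2 further lists, with the median of each list as a blue line. Red points are genes at an adjusted p of 0.05 or below in edgeR, all to the right of 0, with TNC at 1.25 and MXI1 at 1.14.

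Since some of these enzymes and collagens are textbook targets of hypoxia inducible factors and of TGF-beta, other targets of both were read beside them. Of 15 tested hypoxia targets, 13 had a log2 FC above 0 and 3 rose (20%, beside 3.35% of all genes), with a median log2 FC of 0.50. These were PDK1 (0.71, SE 0.14, edgeR adjusted p = 0.0186), BNIP3 (0.70, SE 0.16, edgeR adjusted p = 0.0424) and MXI1 (1.14, SE 0.29, edgeR adjusted p = 0.0497). None of the 3 was called without ACM replicate 1, ACM replicate 2, UCM replicate 2 or UCM replicate 3, nor BNIP3 without UCM replicate 1, with adjusted p up to 0.186 in edgeR. Of the 15, 9 were higher at an unadjusted p of 0.05 in edgeR, beside 11.9% of all tested genes. None was lower, beside 11.5%. CA9, also on the list, was not tested, with 17, 26 and 6 counts in ACM against 2, 1 and 2 in UCM. Of 10 tested TGF-beta targets, 2 rose, LTBP2 (log2 FC 0.76, SE 0.16, edgeR adjusted p = 0.045) and TGFB1 (log2 FC 0.32, SE 0.07, edgeR adjusted p = 0.0288), and the median log2 FC was 0.06. Without ACM replicate 2, ACM replicate 3, UCM replicate 2 or UCM replicate 3, and for LTBP2 also ACM replicate 1, these calls were lost, with adjusted p up to 0.153 in edgeR. The part of either pathway in the values of the collagen genes was not tested.

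Markers of other cell types were read for the same reason. The summed TPM of 6 fibroblast markers (DCN, LUM, PDGFRA, PDGFRB, FAP and THY1) was 1096 to 1394 in ACM and 922 to 1310 in UCM, nearly all of it from THY1, and DCN, which fibroblasts express strongly, had 1 to 6 counts per library. Of the 4 of these 6 that were tested, none was called in edgeR. At an unadjusted p of 0.05 in edgeR, 2 (PDGFRA and FAP) were higher, beside 11.9% of all tested genes. Of 2 leukocyte markers, PTPRC had 3 to 6 counts per library, while CD68, which is also found in lysosomes of other cells, rose with a log2 FC of 1.76 (SE 0.34, edgeR adjusted p = 0.0335). This call was lost without UCM replicate 1, UCM replicate 2 or UCM replicate 3, with an adjusted p of up to 0.158 in edgeR. Their summed TPM was 12.3 to 30.6 in ACM and 5.65 to 8.02 in UCM, and its part in the result was not tested. The 3 endothelial markers had at most 5 counts in a library.

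Over the 6 libraries, the genes outside the 55 whose log2 CPM was most like that of P4HA3 were SPATA2L (Pearson r = 0.999), SNN, RAB39B, GSN and EGLN1 (r = 0.998 each). EGLN1 encodes an oxygen-sensing prolyl hydroxylase that acts on hypoxia inducible factors and not on collagen. The libraries form 2 groups of 3, so such a correlation reflects mostly the difference between the groups, and it was computed as a description.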

How the data were processed

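RNA was polyA-enriched and sequenced in pairs. The authors used Trim Galore for trimming, STAR for alignment to GRCh38 and RSEM for quantification; tool versions, gene annotation and strand setting are not given in the sources used here. For each library the authors deposited the RSEM expected count per gene, which is not scaled and shares reads that fit several genes. They also deposited TPM, scaled by effective length and library total, and the effective length itself. A deposited table of the authors' own DESeq2 comparison (fold changes and p-values) was not used. Depth per library ran from 17135288 to 21053257 expected counts.

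Of 63140 gene identifiers, 62541 were found in GENCODE 44 once the version was ignored, and 4 members (COL3A1, COL4A1, COL4A2 and COL15A1) were matched in that way only. Expected counts were rounded and tested in R 4.3.3 with edgeR 4.0.16: filterByExpr, TMM, and a robust quasi-likelihood fit on condition alone, adjusted over 14451 genes by Benjamini-Hochberg. Calls have an adjusted p at or below 0.05. CPM is scaled with TMM factors. Groups called apart do not overlap in CPM. The procedure was also run on simulated counts with 2-fold changes, where 157 of 192 changed genes were recovered with 10 false calls. The called members changed less than 2-fold, so that run does not measure recovery at their size. The common coefficient of biological variation was 0.115.

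The members and the gene lists, typed by hand, were chosen with earlier results of these data known. Values per library are given for called members, those past the study's thresholds, the 10 highest by TPM, the enzymes and partner chains of named collagens (for few counts, the counts or their range). In the lists, called genes are named, and other genes were named after their values were seen. Alternatives were DESeq2 1.42.0, RLE size factors, 2 other filters, effective length as an offset, protein-coding genes only, the replicate number as a block, glmTreat, each library left out, and limma-trend 3.58.1 on log2 TPM with 1 or 0.1 added. Sequences are from RefSeq (GRCh38.p14), where 41 of the 55 members had a promoter entry.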

Additional observations from a re-analysis of the deposited data

How the results depend on the processing

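Of the 7 called members, P4HA3, PLOD2 and COL5A2 were called in 16 of 17 other settings, COL15A1 in 12, COL6A1 in 10, COL6A2 in 8 and P4HA2 in 7, and the log2 FC of each stayed above 0 in all 17. The number of members called higher was 7 as reported, 13 with no filter beyond 1 count in total, 11 in DESeq2 (beside 5.27% of all tested genes), 3 in limma-trend with either pseudocount and 0 in glmTreat, which tests against the study's fold. Leaving out 1 library gave 3 to 8. At the study's thresholds the reported 5 became 1 in glmTreat, 1 in limma-trend on log2(TPM + 1), 3 on log2(TPM + 0.1) and 2 to 6 without 1 library. The 8 called partner genes became 14 with no filter, 5 with the effective length offset, 0 in glmTreat, 5 in limma-trend with either pseudocount and 4 to 12 without 1 library. The median log2 FC of the members, 0.27, was 0.17 on counts with the effective length offset, 0.16 on log2(TPM + 0.1) and 0.06 on log2(TPM + 1). The TPM settings change the length scaling, the pseudocount and the test together. Over all tested genes the number called higher and lower was 484 and 320 as reported, 1045 and 679 with no filter, 762 and 444 in DESeq2, 272 and 134 with the offset, 10 and 9 in glmTreat, 210 and 121 or 221 and 128 in limma-trend, and 1039 and 749 without replicate 1 of both groups. Without 1 library, the number called higher ranged from 125 (without UCM replicate 2) to 696 (without UCM replicate 1) and the number called lower from 63 (without UCM replicate 3) to 660 (without UCM replicate 1). The cause of these shifts was not tested.

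Members that changed sign had small or imprecise changes, and none of them was called as reported. With the effective length offset, log2 FC was 0.16 for COL14A1, 0.05 for COL27A1, -0.00 for COL4A1 and -0.36 for COL6A3. In limma-trend on log2(TPM + 1) it was 0.04 for COL14A1, 0.01 for COL27A1, -0.03 for COL4A1, -0.14 for COL6A3 and -0.07 for COL7A1. On log2(TPM + 0.1) it was 0.16, 0.01, -0.03, -0.30 and -0.10 for the same genes. Without 1 library, log2 FC ranged from -0.37 to 0.16 for COL14A1, from -0.09 to 0.17 for COL16A1, from -0.08 to 0.12 for COL1A2, from -0.35 to 0.03 for COL27A1 and from -0.06 to 0.07 for COL4A1. It ranged from -0.20 to 0.00 for COL5A1, from -0.08 to 0.85 for COL7A1, from -0.35 to 0.10 for COL8A1, from -0.18 to 0.56 for COL9A2 and from -0.18 to 0.10 for LOXL4. A comparison without replicate 1 of both groups, chosen after seeing the data because COL7A1 and COL8A1 set those libraries apart, called 7 members higher (beside 7.19% of all tested genes) and 18 partner genes, with log2 FC of 0.08 for COL14A1, -0.10 for COL1A2 and -0.05 for COL4A1.

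Replicates share only a number. The correlation of same-numbered deviations was 0.318, 0.0347 and 0.177. Of the differently numbered pairs, ACM replicate 3 with UCM replicate 2 had 0.196, and the others ranged from -0.314 to -0.0146. The sources used here do not say that a number marks a shared batch, so no pairing was assumed and the block is an alternative only. With the replicate block, 13 members were called higher (beside 6.29% of all genes) and 1 lower (COL12A1, log2 FC -0.23, edgeR adjusted p = 0.0481, beside 4.86% of all genes called lower), 16 partner genes were called, 5 members passed the study's thresholds and the median was 0.28.

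Depth limits the statements on the 18 untested collagens and on COL5A3, COL9A2, COL9A3, COL14A1, COL21A1 and LOXL4, which had at most 25 counts in a library.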
